A study of Mus musculus with 23 samples.

Results

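Of 35389 TRB clonotypes with a fully read CDR3, 5146 (14.5%) carried a short amino acid motif that points to one of the 2 TRB diversity segments. A clonotype here is a CDR3 amino acid sequence together with its V and J segment. A CDR3 holding DRG or GQG from position 5 on and ahead of its last 5 residues was called Dβ1-like, and one holding DWG or GLG there was called Dβ2-like. The Dβ1-like set had 1980 clonotypes (5.595% of all TRB clonotypes) and the Dβ2-like set 3166 (8.95%). A further 20 clonotypes carried both kinds and were left out, and 30223 had neither. The motifs were the only values used for the choice, and neither the J cluster, the V segment nor the abundance of a clonotype entered the rule. The window does set a minimum CDR3 length of 12 residues, which 1659 clonotypes without a motif did not reach.

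The libraries came from mice with syngeneic Nras-mutant melanoma, a model built from the Nras Q61R line NIL, whose mutational burden had been raised by ultraviolet light. The labels give 4 treatments, which are no drug (control), trametinib (a MEK inhibitor), BGB-283 (a RAF inhibitor) and both drugs (combination), each at D4 and D11. The event from which these days count is not given in the sources used here. There were 23 libraries in 8 groups, with 3 libraries per group except control at D11, which had 2. All share the same tumour line, the tissue label names that line alone, and the T cell receptor transcripts measured come from the T cells in the samples. Nothing in the labels says that replicates came from different animals, and the p-values therefore reflect the spread among the libraries compared, which may be technical. TRB counts ran from 32534 to 320420 per library and TRB clonotypes from 214 to 5172, with 214 to 749 clonotypes in control, 733 to 2194 under trametinib, 436 to 1370 under BGB-283 and 1074 to 5172 under the combination.

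The β chain of the T cell receptor is assembled from a V, a D and a J segment, and the D segment lies at the centre of the CDR3, the loop that contacts the peptide. Each D segment can be read in any frame: DRG and GQG are frames of the first D segment, DWG and GLG are the matching frames of the second, and the remaining frame reads much alike in both and was not used. Trimming and added nucleotides often erase these letters, so a clonotype without a motif has not lacked a D segment, and a motif can also arise without one. In the mouse reference annotation (GRCm38.p6, used for names and gene order alone) Trbd1 lies on chromosome 6 ahead of the Trbj1 cluster and Trbc1, followed by Trbd2, the Trbj2 cluster and Trbc2. Rearrangement deletes the DNA between joined segments, so the first D segment can join either J cluster whereas the second lies past the J1 cluster and is usually joined to J2.

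Members with a large share of the repertoire, or found in several libraries, show what the rule selects. They are written from the amino to the carboxyl end, with the motif in capitals; the letters ahead of it come mainly from the V segment and added nucleotides, and those after it mainly from the J segment. The first 5 are Dβ1-like and the next 5 are Dβ2-like; the last is a Dβ2-like clonotype on a J1 segment, which is the arrangement that the gene order makes unusual.
TRBV13-2 with TRBJ2-3: casgdDRGaetlyf
TRBV3 with TRBJ2-5: casapGQGvdtqyf
TRBV3 with TRBJ2-5, with other letters ahead of the motif: casslGQGvdtqyf
TRBV2 with TRBJ1-4: cassqdrDRGderlff
TRBV29 with TRBJ2-1: casspGQGyaeqff
TRBV3 with TRBJ2-7: casrsGLGyeqyf
TRBV1 with TRBJ2-7: ctcsaeDWGyeqyf
TRBV16 with TRBJ2-7: casslDWGgyeqyf
TRBV19 with TRBJ2-7: cassiGLGgyeqyf
TRBV26 with TRBJ2-7: casslslDWGaeqyf
TRBV1 with TRBJ1-3: ctcsaaGLGntlyf

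The 2 kinds differed sharply in the J cluster they were joined to. Dβ2-like clonotypes were almost confined to J2, with 3132 of 3166 (98.9%) there and 34 (1.07%) on J1. Dβ1-like clonotypes were split between the clusters, with 860 of 1980 (43.4%) on J1 and 1120 (56.6%) on J2. Clonotypes without a motif lay between them, with 67.5% on J2. Within single libraries the J2 share was 56.4% ± 15.1 (SD, n = 23) for Dβ1-like, 98.8% ± 1.89 for Dβ2-like and 67.5% ± 1.97 for no-motif clonotypes.

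Compared within each library, the J2 share was 42.5 ± 16.4 percentage points higher for Dβ2-like than for Dβ1-like clonotypes, in 22 of 23 libraries (two-sided paired permutation test with 100000 random sign changes, adjusted p = 1.6e-05 over 8 within-library comparisons; the unadjusted p of 1e-05 is the smallest that number can give). Dβ2-like clonotypes exceeded no-motif clonotypes by 31.3 ± 2.58 points in 23 of 23 libraries (paired permutation test, adjusted p = 1.6e-05). Dβ1-like clonotypes fell below them by 11.2 ± 16.0 points, in 19 of 23 libraries (paired permutation test, adjusted p = 0.0028). The wide SD of the Dβ1-like share sits in the shallow control libraries. In control D4 replicate 1, 2 of 11 Dβ1-like clonotypes were on J2 (18.2%, exact 95% binomial interval 2.28 to 51.8), and in control D11 replicate 1 all 12 of 12 were (73.5 to 100). That second library is the 1 in which the Dβ2-like share (22 of 24, 91.7%) was not the higher. These intervals cover counting error only.

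**Figure D1:**
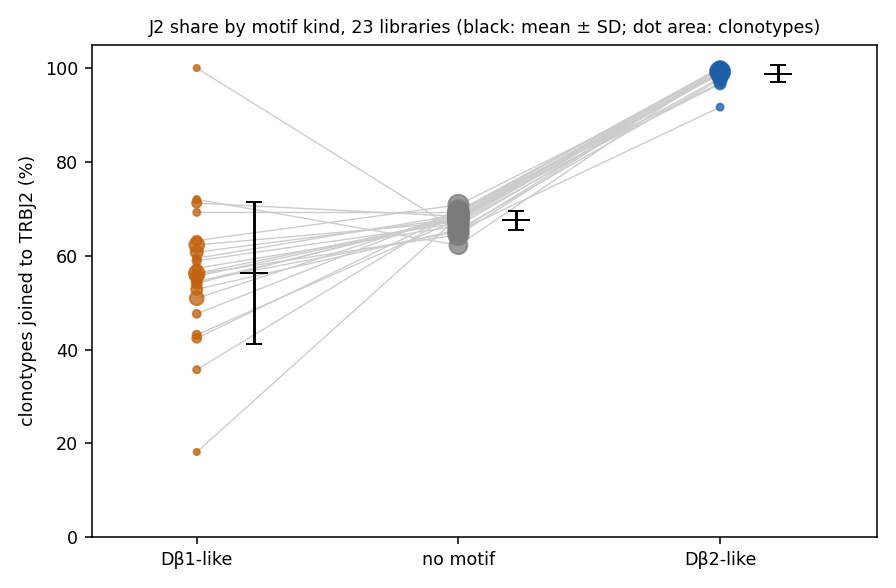
Share of clonotypes joined to a TRBJ2 segment (percent, vertical axis) for Dβ1-like, no-motif and Dβ2-like clonotypes. Each dot is 1 of 23 libraries, its area growing with its number of clonotypes up to a limit, grey lines join the values of a library, and black marks give the mean ± SD; Dβ2-like values lie between 91.7 and 100%, no-motif values between 62.2 and 70.8%, and Dβ1-like values spread from 18.2 to 100%.

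Seen from the J side, the same asymmetry was present at every segment. Among J1-joined clonotypes 8.02% were Dβ1-like and 0.317% were Dβ2-like, and among J2-joined clonotypes 4.54% were Dβ1-like and 12.7% were Dβ2-like. The Dβ1-like share ran from 7.13 to 8.66% over the 6 J1 segments and from 4.13 to 5.80% over the 6 J2 segments, with no overlap between the clusters. The Dβ2-like share ran from 0.173 to 0.805% over the J1 segments and from 9.74% at TRBJ2-2 to 14.4% at TRBJ2-7 over the J2 segments. A Dβ1-like motif was thus found on both clusters but less often on J2: its share was higher on J1 in 20 of 23 libraries (7.84% ± 2.92 against 4.29% ± 1.09, SD, n = 23). The Dβ2-like share was higher on J2 in 23 of 23 libraries, 11 of which listed no Dβ2-like clonotype on J1.

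**Figure D2:**
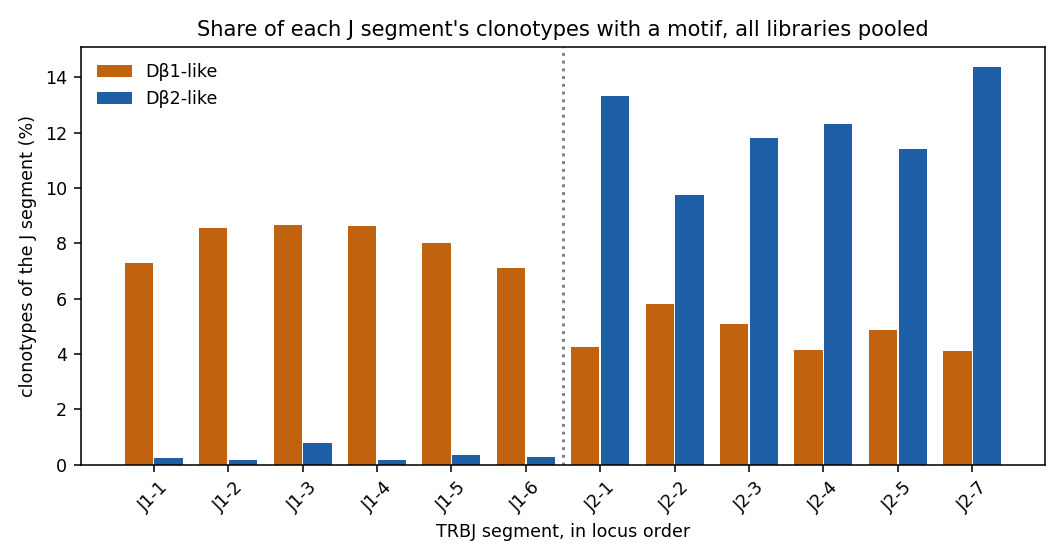
Percent of the clonotypes of each TRBJ segment, pooled over 23 libraries, that were Dβ1-like (orange) or Dβ2-like (blue), with segments in locus order and a dotted line between the J1 and J2 clusters. Blue bars stay at or below 0.805% on J1 and reach 9.74% or more on J2, while orange bars are present on both sides.

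Both motifs of a kind behaved alike in this respect. On J2 lay 546 of 905 clonotypes with DRG (60.3%), 575 of 1078 with GQG (53.3%), 2045 of 2059 with DWG (99.3%) and 1088 of 1108 with GLG (98.2%). The frame use was uneven in the Dβ2-like kind, where DWG took 66.0% ± 6.99 of a library's clonotypes (SD, n = 23), and close to even in the Dβ1-like kind, where DRG took 46.9% ± 10.9. The motif began at position 6 in 50.8% of DRG, 62.6% of GQG, 53.5% of DWG and 61.9% of GLG clonotypes. TRBV13 segments, used by 11.4% of all TRB clonotypes, took 88 of 172 DRG (51.2%), 95 of 307 DWG (30.9%), 37 of 123 GLG (30.1%) and 19 of 113 GQG clonotypes (16.8%) whose motif began at position 5. Taking only motifs that began at position 7 or later, 50.5% of 566 Dβ1-like and 97.8% of 964 Dβ2-like clonotypes were on J2.

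The flanking residues, which the rule did not use, differed by kind after the motif and by frame before it. A further glycine directly followed the motif in 31.4% of DWG and 43.5% of GLG clonotypes, against 11.7% of DRG and 10.8% of GQG clonotypes. The TRBV16 clonotype casslDWGgyeqyf and the TRBV19 clonotype cassiGLGgyeqyf are of this form. Whether that glycine is a further letter of the D segment itself was not tested, because no germline D sequence was among the sources used here. Ahead of the motif, arginine was the commonest residue in both aspartate frames (35.3% of DRG and 32.8% of DWG) and proline in both glycine frames (32.9% of GQG and 26.3% of GLG).

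The 34 Dβ2-like clonotypes on J1 were spread thinly. They were found in 12 libraries, at most 5 in a library, and none was found in more than 1. Other J1-joined clonotypes were rarely shared too, with 2.56% of Dβ1-like and 3.065% of no-motif ones in 2 or more libraries. Of the 34, 13 were on TRBJ1-3, 8 on TRBJ1-1, 4 on TRBJ1-4 and 3 on each of the other J1 segments. Their median was 29 counts, against 20 for Dβ2-like clonotypes on J2, so they were not lower by this measure. The most abundant were ctcsaaGLGntlyf (TRBV1 with TRBJ1-3, 335 counts, 0.231% of TRB counts in trametinib D4 replicate 2) and casgDWGagntevff (TRBV13-2 with TRBJ1-1, 263 counts, 0.288% in BGB-283 D4 replicate 1). On TRBJ1-3 the motif stood directly before the end ntlyf in 9 of 13 (69.2%), against 11 of 140 Dβ1-like clonotypes on that segment (7.86%). A glycine precedes that end in 1482 of all 1616 TRBJ1-3 clonotypes (91.7%), so in those 9 the motif's last letter is one that the segment's clonotypes mostly share. Single-residue neighbours were also present. Of the 34, 3 (8.82%) had a clonotype at least 10 times larger, 1 residue away, with the same V, J and length in the same library. The share was 5.88% for Dβ2-like entries on J2 and 8.90% for no-motif entries. Whether any of these are copying or reading errors was not tested.

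Members of both kinds had longer CDR3s than clonotypes without a motif. Among CDR3s long enough to hold one (12 residues or more), the mean length was 14.62 residues (SD 1.18 over clonotypes) for Dβ1-like, 14.99 (SD 1.26) for Dβ2-like and 14.03 (SD 1.28) for no-motif clonotypes. Within libraries the difference from no-motif clonotypes was 0.637 ± 0.150 residues for Dβ1-like and 0.946 ± 0.147 for Dβ2-like, in 23 of 23 libraries each (SD, n = 23, paired permutation test, adjusted p = 1.6e-05 each). A longer CDR3 has more places for a motif, and the window fixes a minimum length, so part of this difference is built into the rule. The comparison of the kinds with each other applies the same window to both: Dβ2-like CDR3s were 0.310 ± 0.156 residues longer than Dβ1-like CDR3s, in 22 of 23 libraries (paired permutation test, adjusted p = 1.6e-05). On J2 alone, where both kinds meet the same J segments (a comparison added after the data were seen), that difference was 0.508 ± 0.165 residues, in 23 of 23 libraries (paired permutation test, adjusted p = 1.67e-05). Dβ1-like CDR3s averaged 14.84 residues on J1 and 14.46 on J2, and Dβ2-like CDR3s 14.99 on J2.

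**Figure D3:**
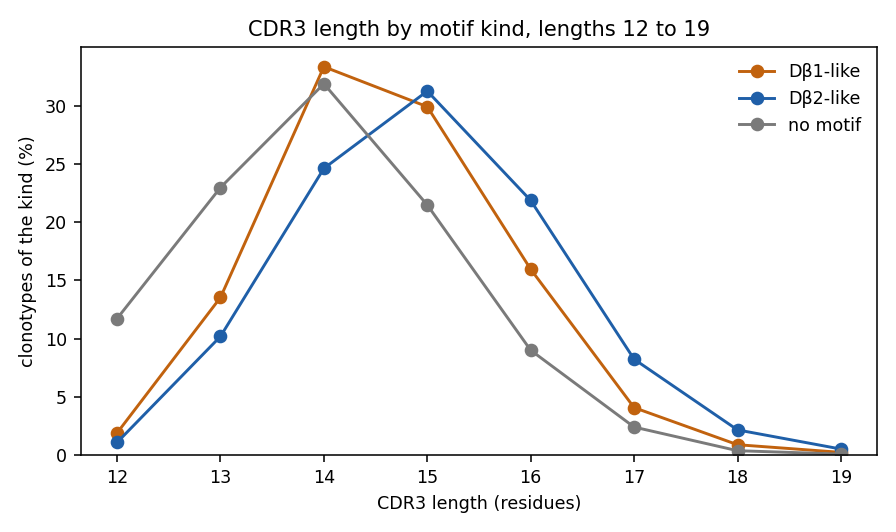
Percent of each kind's clonotypes (vertical axis) by CDR3 length in residues (horizontal axis), pooled over 23 libraries, with no-motif clonotypes limited to 12 residues or more. The commonest length is 14 residues for Dβ1-like (33.3%) and no-motif clonotypes (31.9%) and 15 residues for Dβ2-like clonotypes (31.2%).

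The kinds also paired with different V segments, which encode most of the variable domain and the start of the CDR3. On J2-joined clonotypes alone, 4 of 24 TRBV segments (16.7%) took a different share of Dβ2-like than of Dβ1-like clonotypes. TRBV29 fell from 21.0% ± 9.36 of Dβ1-like to 3.67% ± 2.19 of Dβ2-like clonotypes (SD, n = 23), lower in 23 of 23 libraries (paired permutation test over 24 segments, adjusted p = 8e-05). It took 12.9% ± 3.02 of J2-joined clonotypes without a motif, between the means of the kinds; neither kind was tested against no-motif clonotypes here. TRBV16 rose from 8.09% ± 5.71 to 16.1% ± 5.26, higher in 21 of 23 libraries (paired permutation test, adjusted p = 8e-05), and here the Dβ2-like share was near the 16.9% ± 3.18 of no-motif clonotypes. TRBV12-1 rose from 2.52% ± 2.67 to 8.38% ± 2.81 in 20 libraries (paired permutation test, adjusted p = 8e-05), with no-motif clonotypes at 5.73% ± 1.57. TRBV4 rose from 0.739% ± 2.02 to 4.48% ± 2.04 in 21 libraries (paired permutation test, adjusted p = 0.00012), with no-motif clonotypes at 1.96% ± 0.907. TRBV3 (+5.19 points, adjusted p = 0.06), TRBV1 (+3.39 points, adjusted p = 0.061) and TRBV17 (-3.46 points, adjusted p = 0.085) did not pass the paired permutation test, and are named after their values were seen as the segments with the next smallest p.

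The V segments and the motifs met in particular combinations. On J2, TRBV29 took 124 of 575 GQG clonotypes (21.6%) and 80 of 546 DRG clonotypes (14.7%), against 2.98% of DWG and 4.78% of GLG clonotypes, so both Dβ1-like frames held more of it than either Dβ2-like frame. Over both J clusters 244 TRBV29 clonotypes carried GQG, and in 101 of them (41.4%) a proline stood ahead of the motif, as in casspGQGyaeqff, which was listed in 4 libraries. TRBV4 took 5.82% of DWG and 2.11% of GLG clonotypes on J2, against 0.733% of DRG and 0.870% of GQG clonotypes. TRBV16 took 16.04% of DWG and 16.2% of GLG clonotypes on J2, against 9.52% of DRG and 7.13% of GQG clonotypes. With motifs from position 7 on, past most V-encoded letters, TRBV29 stayed lower (-15.5 points, paired permutation test, adjusted p = 0.00144) and TRBV16, TRBV12-1 and TRBV4 stayed higher (adjusted p of 0.0436, 0.00246 and 0.00144). TRBV1 passed as well in that setting (+7.29 points, adjusted p = 0.00246), while TRBV3 passed with entries of 20 or more counts (+5.47 points, adjusted p = 0.0374, paired permutation tests).

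**Figure D4:**
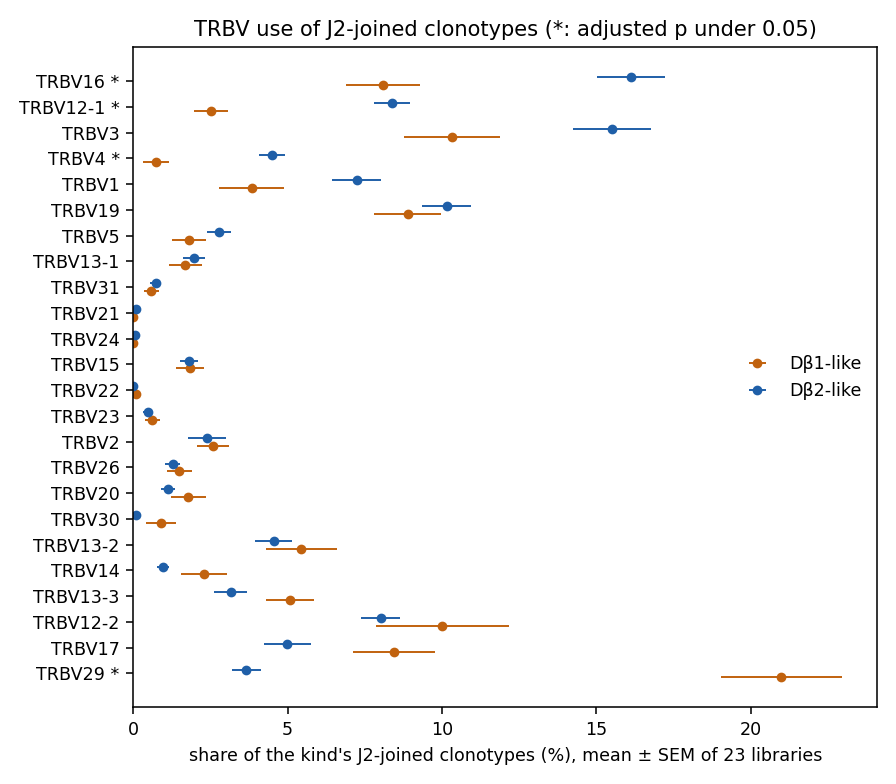
Share of each TRBV segment among J2-joined Dβ1-like (orange) and Dβ2-like (blue) clonotypes, in percent, as the mean ± SEM of 23 libraries; segments are ordered by the difference and a star marks an adjusted p under 0.05. TRBV16, TRBV12-1 and TRBV4 are starred at the top with higher blue points, and TRBV29 is starred at the bottom with orange at 21.0% and blue at 3.67%.

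Within the J2 cluster 2 of 6 segments (33.3%) were used differently by the kinds. TRBJ2-7, the last segment of the cluster, took 33.7% ± 6.37 of Dβ2-like and 23.1% ± 11.8 of Dβ1-like clonotypes, higher in 20 of 23 libraries (SD, n = 23, paired permutation test over 6 segments, adjusted p = 0.005). TRBJ2-2 took 5.12% ± 3.34 of Dβ2-like and 9.63% ± 6.38 of Dβ1-like clonotypes, lower in 16 libraries (paired permutation test, adjusted p = 0.013). TRBJ2-3, with 13.3% of Dβ2-like and 18.6% of Dβ1-like clonotypes, did not pass (adjusted p = 0.083). Neither difference passed with motifs from position 7 on (TRBJ2-7 +6.49 points, TRBJ2-2 -3.69 points, adjusted p of 0.434 each) or with entries of 20 or more counts (+9.74 and -3.95 points, adjusted p of 0.066 and 0.0694).

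Dβ2-like clonotypes held fewer counts on average than clonotypes without a motif. The difference for the Dβ1-like kind did not pass. Mean counts per clonotype within a library were 78.3 ± 44.8 for Dβ2-like, 109 ± 74.2 for Dβ1-like and 123 ± 62.5 for no-motif clonotypes (SD, n = 23). On the log2 scale Dβ2-like clonotypes lay -0.66 ± 0.86 from no-motif clonotypes, a fold of 0.632, and were lower in 19 of 23 libraries (paired permutation test, adjusted p = 0.0022). The difference for Dβ1-like clonotypes was -0.32 ± 0.95, lower in 15 libraries (paired permutation test, adjusted p = 0.12). Whether the kinds differed from each other in this was not tested. These are means over sets of unlike size, with 148.5 Dβ2-like and 1378 no-motif clonotypes in an average library. The largest clonotype held 2.62% of TRB counts on average for Dβ2-like and 15.1% for no-motif clonotypes. A small set holds the rare large clonotypes less often, and the part of set size in this difference was not tested. A larger count can come from more cells of a clone or from more transcript per cell, which cannot be told apart in bulk RNA.

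Most members held a small share of a library, and a few large clonotypes set the highest shares of counts. Entries of at least 1% of a library's TRB counts numbered 18 for Dβ1-like, 12 for Dβ2-like and 243 for no-motif clonotypes, which were 0.873, 0.351 and 0.767% of the entries of each. The Dβ1-like ones lay in control (7, 5.93% of the kind's entries there), trametinib (5, 1.07%) and combination libraries (6, 0.522%). The Dβ2-like ones lay in trametinib (2, 0.255%), BGB-283 (5, 0.859%) and combination libraries (5, 0.266%). No-motif ones lay in control (67, 3.215%), trametinib (53, 0.731%), BGB-283 (63, 1.19%) and combination libraries (60, 0.351%). Their spread over treatments was not tested. The largest member was casrsGLGyeqyf, at 21.6% of TRB counts in combination D11 replicate 2, 12.99% in BGB-283 D4 replicate 3 and 4.51% in combination D11 replicate 1. It was listed at 0 in the other 20 libraries. Among Dβ1-like members casgdDRGaetlyf reached 13.8% in combination D11 replicate 1 and 1.92% in control D4 replicate 2, casapGQGvdtqyf 8.32% in combination D11 replicate 2 and casslGQGvdtqyf 7.002% in trametinib D4 replicate 3. The pair of GQG clonotypes uses the same V and J segments and reads the same from the motif on. Each was listed in 1 library, as were all but 59 of the 1980 Dβ1-like clonotypes.

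Dβ2-like members recurred between libraries more often than Dβ1-like members, as a description. Of the Dβ2-like clonotypes 191 (6.03%) were listed in 2 or more libraries, against 59 Dβ1-like (2.98%) and 1100 no-motif clonotypes (3.64%). Within a library, 14.3% ± 6.10 of Dβ2-like, 7.84% ± 4.07 of Dβ1-like and 9.11% ± 1.97 of no-motif clonotypes were also listed in another library (SD, n = 23). The Dβ2-like share was above the Dβ1-like share in 20 and above the no-motif share in 19 libraries. The most widespread were ctcsaeDWGyeqyf, in 9 libraries at 0.0150 to 2.33% of TRB counts, and the Dβ1-like cassqdrDRGderlff, in 8 libraries at 0.0232 to 2.92%. A close relative of the latter, cassqerDRGderlff, was listed in 6 libraries at up to 1.82%. Both are on TRBV2 and TRBJ1-4.

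Treatment was then compared for the share of clonotypes. Dβ2-like clonotypes made up 5.14, 6.97 and 5.32% of TRB clonotypes in the control libraries at D4, and 8.05 and 9.21% at D11. Under trametinib they made up 10.5, 8.10 and 8.63% at D4 and 9.48, 9.56 and 9.72% at D11. The trametinib values lay above the control values of the same day without overlap, while over both days the ranges met. The mean over days was 2.11 points higher under trametinib (9.33% ± 0.848, n = 6, against 6.94% ± 1.75, n = 5, SD), by 3.27 points at D4 and 0.954 at D11 (two-sided exact permutation test within days, p = 0.005, the smallest this design allows; adjusted p = 0.03 over 6 contrasts and 0.18 over all 36 tests between groups). The difference between the days did not pass (exact permutation test, p = 0.205).

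The other drug groups had similar Dβ2-like shares but did not pass against control. BGB-283 libraries held 7.44, 9.93 and 11.1% at D4 and 8.03, 9.25 and 8.95% at D11, 1.89 points above control (3.67 at D4 and 0.107 at D11, exact permutation test, adjusted p = 0.12). Combination libraries held 9.40, 9.65 and 9.06% at D4 and 9.44, 9.64 and 7.17% at D11, 1.84 points above control (3.56 at D4 and 0.116 at D11, exact permutation test, adjusted p = 0.12). The change of these differences between days did not pass for either (exact permutation test, adjusted p = 0.237 each). The combination differed from trametinib by -0.27 points and from BGB-283 by -0.051 points (exact permutation test, adjusted p of 0.744 and 0.935). All drug comparisons share the same 5 control libraries.

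The trametinib difference kept its direction in each other setting, and its call in some. With every library thinned to the lowest TRB count it was 2.14 points (exact permutation test, adjusted p = 0.03). It was 0.93 points with motifs from position 7 on and 1.68 with entries of 20 or more counts (exact permutation tests, adjusted p of 0.12 and 0.21). Without the shallowest pair of control libraries it was 1.66 points (exact permutation test, p = 0.025, adjusted p = 0.15). That p is the smallest possible in this design, and it passes the adjustment only if other contrasts also have a low p. Control libraries averaged 475 clonotypes and trametinib libraries 1417, and the part of clonotype number in this difference was not tested beyond that thinning.

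For Dβ1-like clonotypes no treatment contrast passed. Their share of clonotypes was 5.02% ± 1.202 in control (n = 5), 5.47% ± 0.511 under trametinib, 5.31% ± 0.395 under BGB-283 and 5.61% ± 0.928 under the combination (SD, n = 6 each). The groups overlapped, and the lowest adjusted p of the 6 contrasts was 0.646 (exact permutation test). D11 minus D4 was 0.234 points for Dβ1-like and 0.491 points for Dβ2-like clonotypes (permutation test within treatments, adjusted p of 0.646 and 0.571). Whether trametinib shifted one kind more than the other was addressed only by the Dβ2-like share among J2-joined members, which was 73.2% ± 7.78 in control, 74.6% ± 4.10 under trametinib, 75.1% ± 5.84 under BGB-283 and 74.0% ± 2.79 under the combination (SD, n = 5 to 6). No contrast of it passed (exact permutation test, lowest adjusted p = 0.755).

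**Figure D5:**
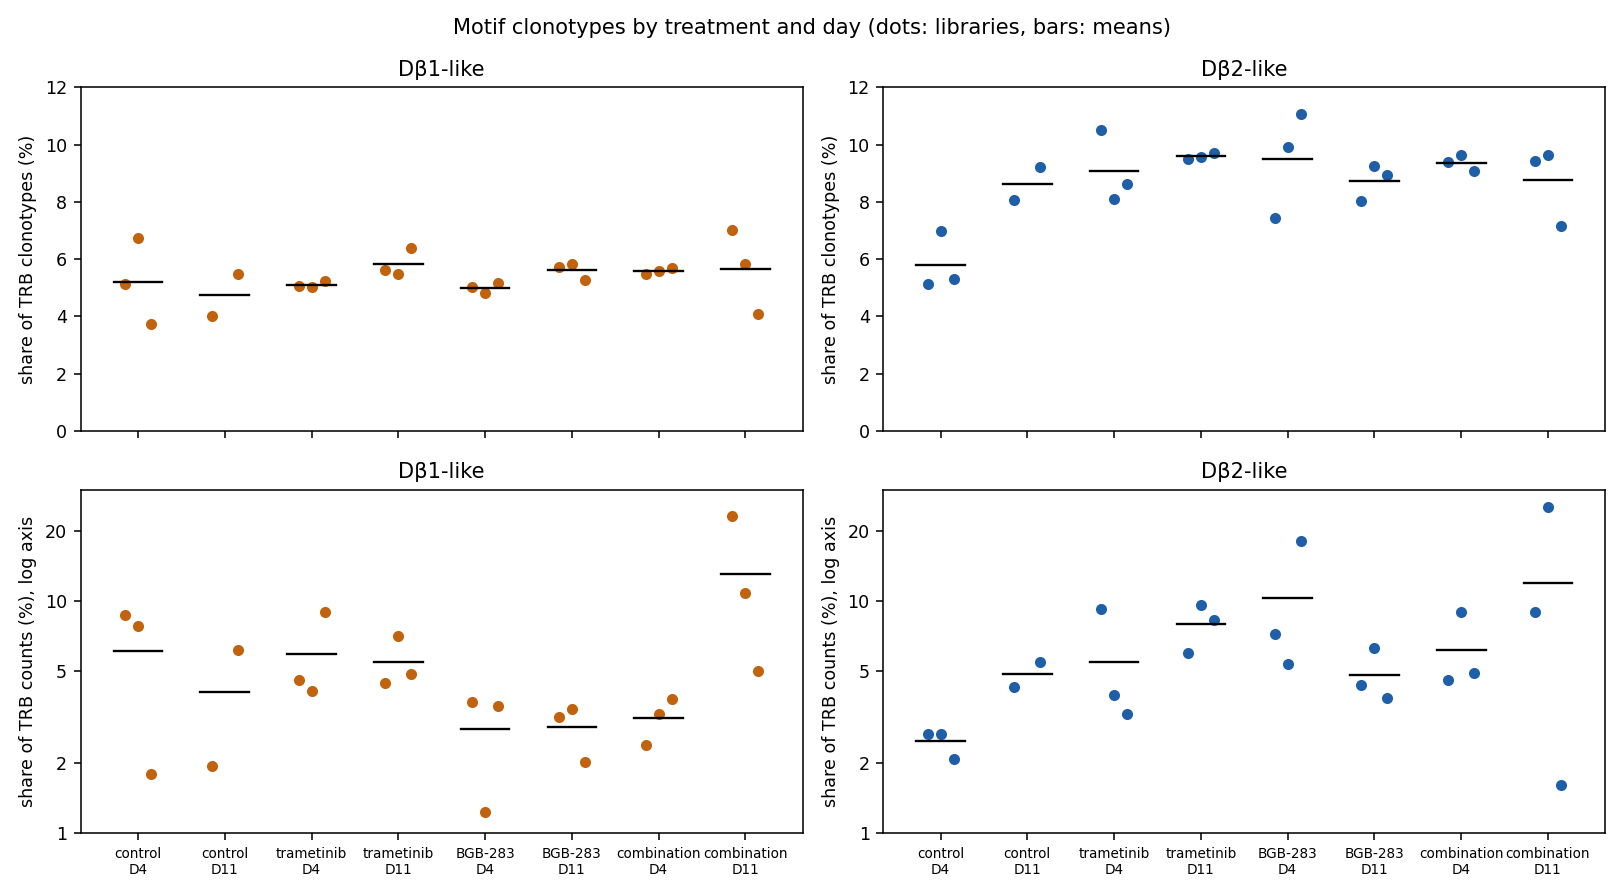
Share of TRB clonotypes (top, percent) and of TRB counts (bottom, percent on a log axis) held by Dβ1-like (left, orange) and Dβ2-like (right, blue) clonotypes in each library (dots) of the 8 groups, with group means as bars. Dβ2-like shares of clonotypes in control D4 lie between 5.14 and 6.97%, below each other group, and the shares of counts spread most in the combination group at D11.

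Shares of counts varied far more between libraries than shares of clonotypes. Dβ1-like clonotypes held 1.79 to 8.67% of TRB counts in control, 4.08 to 8.97% under trametinib, 1.23 to 3.65% under BGB-283 and 2.39 to 23.2% under the combination. Dβ2-like clonotypes held 2.09 to 5.46% in control, 3.24 to 9.60% under trametinib, 3.81 to 18.1% under BGB-283 and 1.61 to 25.2% under the combination. Single clonotypes made up much of the highest values. Without its largest member the Dβ1-like share in combination D11 replicate 1 was 10.87% in place of 23.2%, still the highest of any library. On the same footing the Dβ2-like share in combination D11 replicate 2 was 4.56% in place of 25.2%, and in BGB-283 D4 replicate 3 it was 5.88% in place of 18.1%. None of the 12 contrasts of these shares passed the permutation test. The nearest was the Dβ2-like share under trametinib, 0.89 higher than control in log2 odds (exact permutation test, p = 0.01, adjusted p = 0.06).

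The J2 share of Dβ1-like clonotypes had similar treatment means over both days, which covered opposite differences on single days. This share rests on amino acid motifs, which can arise without a D segment, so it does not measure joining of the first D segment itself. Over both days it was 55.8% ± 31.4 in control (n = 5), 57.3% ± 9.64 under trametinib, 55.5% ± 10.2 under BGB-283 and 56.7% ± 4.17 under the combination (SD, n = 6 each). No contrast passed the exact permutation test (lowest adjusted p = 0.905). By day the mean went from 41.0% at D4 to 78.05% at D11 in control, from 64.6 to 50.02% under trametinib, from 48.2 to 62.8% under BGB-283 and from 54.3 to 59.2% under the combination. The differences from control were thus 23.6 points at D4 and -28.0 at D11 for trametinib (change between days, exact permutation test, adjusted p = 0.1), 13.2 and -18.9 for the combination (adjusted p = 0.231) and 7.11 and -15.3 for BGB-283 (adjusted p = 0.36). None of these changes against control passed. The control means rest on 11 to 41 Dβ1-like clonotypes per library. At D11 the control mean is that of 2 libraries, 1 at 100% (12 of 12) and 1 at 56.1% (23 of 41). Between combination and trametinib the difference was -10.4 points at D4 and 9.18 at D11, and this change passed (exact permutation test, adjusted p = 0.025).

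Counts summed over each kind and J segment were also compared. Of 35 such categories tested, 23 of them members, edgeR's quasi-likelihood test called 0 (0%) in each of the 6 contrasts after Benjamini-Hochberg adjustment. An unadjusted p under 0.05 was reached by 3 categories for combination, 5 for trametinib and 4 for BGB-283 against control, by 2 and 4 for combination against trametinib and BGB-283, and by 8 for D11 against D4. DESeq2, with its own scaling between libraries in place of the TRB total, called 3, 3, 0, 1, 0 and 4 of the 35 in the same order. How these calls divide between members and no-motif categories was not examined. The nearest categories against control were Dβ1-like TRBJ2-7 (log2 fold 3.70 ± 1.18, SE) and Dβ2-like TRBJ2-7 (2.31 ± 0.745) under the combination, each with an adjusted p of 0.0669 from edgeR. The latter holds the clonotype casrsGLGyeqyf described above.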

How the data were processed

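TRB transcripts were sequenced from total RNA with a QIAGEN immune repertoire kit, per the labels. The deposited values are counts of each V, J and CDR3 combination, with no scaling between libraries. Per the submitters' processing notes the build is GRCh38, which is human. The aligner is not given in the sources used here, nor is the clonotype caller. The lowest count is 3 and counts pile up at multiples of 20, so estimated molecules (count divided by 20, rounded up) served as an alternative.

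Of 35571 TRB entries, 182 with unresolved residues were left out. Shares were compared by exact permutation within days, with Benjamini-Hochberg adjustment over 6 contrasts, and within libraries by 100000 sign changes. Shares of counts used log2 odds with 0.5 counts added. edgeR 4.0.16 (library size the TRB total, filterByExpr) and DESeq2 1.42.0 (its own scaling between libraries) in R 4.3.3, with Python 3.11.15, were used. The permutation test within days, the sign-change test and edgeR were tried on simulated data. The changes put into those data were large, so the trials do not tell how often smaller differences would be found. DESeq2 and the test of the change between days were not part of these trials.

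Named segments are those past an adjusted p of 0.05, or the 3 with the smallest p where fewer than 3 passed; TRBV1, TRBV3 and TRBV17 fall outside this rule. Named clonotypes are the 5 largest by mean share and the 5 in most libraries per kind; J1-joined Dβ2-like ones were named after their values were seen. Members and lists were chosen with earlier results of these data known. All 24 TRBV and 12 TRBJ names matched the annotation. Same-numbered replicates did not deviate together in every pair in any contrast (0 of 6, 38 pairs, r from -0.713 to 0.627), so they were treated as unpaired.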

Additional observations from a re-analysis of the deposited data

Results flagged for a closer look

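The J2 share of Dβ1-like clonotypes differed between combination and trametinib in opposite directions on the 2 days. At D4 it was 55.6, 56.3 and 50.9% under the combination and 59.5, 71.2 and 63.2% under trametinib, a difference of -10.4 points. At D11 it was 60.8, 62.3 and 54.5% under the combination and 52.9, 43.1 and 54.1% under trametinib, a difference of 9.18 points. The groups did not overlap on either day, though narrowly at D11. There the nearest libraries were combination replicate 3 (24 of 44, 54.55%) and trametinib replicate 3 (53 of 98, 54.08%). Their exact 95% binomial intervals were 38.85 to 69.61 and 43.71 to 64.2, which overlap. The change between days was 19.55 points (exact permutation test, p = 0.005, the smallest this design allows, adjusted p = 0.025 over 5 contrasts). It was 1 of 30 such tests, of which 3 had an unadjusted p under 0.05.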

How the results depend on the processing

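Of 431 values under alternative settings, 406 kept their direction and their side of the threshold, or moved by less than the spread between replicates. With 1 library left out, 719 of 744 did. No called difference changed direction, but some differences that did not pass changed sign, as given below. The trametinib difference in the Dβ2-like share of clonotypes was 0.93 points with motifs from position 7 on, 1.68 with entries of 20 or more counts, 1.66 without the shallowest pair of controls (p = 0.025, exact permutation, the smallest possible) and 2.08 with the replicate block (p = 0.0625, exact permutation of paired signs, the smallest possible). Leaving out each of 11 libraries gave 1.76 to 2.40 points with adjusted p of at least 0.06 (exact permutation test). Those designs allow too few permutations for this contrast to pass unless other contrasts also have a low p. The cause of the other losses was not tested.

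With motifs from position 7 on, the Dβ2-like share of clonotypes was 0.48 (combination) and 0.69 points (BGB-283) above control. Log2 odds of counts were 0.12 for Dβ1-like in combination against BGB-283, and -0.12 and -1.07 for Dβ2-like in combination against control and trametinib. The Dβ2-like share of J2-joined members was -5.63 (combination) and -5.35 points (BGB-283) from control. Counts per clonotype of the Dβ1-like kind lay -0.52 from no-motif clonotypes (adjusted p = 0.0221 by permutation), and -0.42 to -0.23 when 1 library was left out, passing without combination D11 replicate 1. Entries of 20 or more counts gave 1.68 points for the Dβ1-like share in combination against control. That share in combination against BGB-283 ran from -0.038 to 0.69 points when 1 library was left out, passing without combination D11 replicate 3. Motifs from position 7 on and entries of 20 or more counts each gave 0 J2 segments and 5 V segments (the 4 called plus TRBV1 or TRBV3, respectively). Leaving out the shallowest controls, leaving out the largest clonotype of a kind and keeping J2-joined clonotypes alone were chosen after seeing the data.

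Called categories of kind and J segment, 0 by edgeR, became 2 (combination against control) and 1 (combination against trametinib) with TMM or with the replicate block, 1 (combination against control) and 4 (D11 against D4) in estimated molecules, and 3 (combination against control), 3 (trametinib against control), 1 (combination against trametinib) and 4 (D11 against D4) by DESeq2. Leaving out 1 library gave 0 to 2, 0 to 1 and 0 to 1 for combination, trametinib and BGB-283 against control, 0 to 1 for combination against each drug and 0 to 3 for D11 against D4. A replicate number shared between groups is no evidence of pairing here.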
